A study of Rattus norvegicus with 4 samples.

Results

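The let-7 5p miRNAs of rat serum exosomes (Exos) are let-7a-5p, let-7b-5p, let-7c-5p, let-7d-5p, let-7e-5p, let-7f-5p, let-7g-5p and let-7i-5p, the strands that guide silencing. They were taken by name, and they are 8 of the 243 miRNAs listed. All 8 were above 0 in each of the 4 libraries. The small RNA came from Exos that were isolated by ultracentrifugation from the serum of rats. A pair of libraries carries the treatment label Exercise, for rats trained on a treadmill, and a pair the label Sedentary. The design text gives 20 rats in each group. How many rats stand behind a library is not stated, so p-values measure only the spread between libraries, which may be technical. No other treatment, allele or batch is labelled for either group, and the methods of the study use adult male SD rats. The isolation does not separate Exos by the cells that released them.

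Library titles and treatment labels may be at odds. The titles of the sedentary-labelled libraries open with E and those of the exercise-labelled libraries open with N. Groups follow the treatment labels here, and each direction refers to libraries so labelled. If the labels were exchanged, every direction below would turn.

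let-7 was among the earliest miRNAs found, as a timing gene of the nematode larva, and its mature sequence is nearly the same from worms to mammals. The mature strand is loaded into an Argonaute protein and pairs through its seed (bases 2 to 8) with target mRNAs, which are then repressed. Known targets include the growth regulators Hmga2, Lin28 and the Ras genes. Lin28 in turn blocks the processing of let-7 precursors, and let-7 levels are known to be high in differentiated tissue and in blood.

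The prefix rno marks rat miRNAs in the files and is left out elsewhere. The sequences are shown because the members differ at so few bases that the counting of reads has to tell them apart by 1 base in some cases. They are written as deposited, with T in place of U, from the 5′ to the 3′ end, and the seed is in capitals. miR-98-5p is added because it carries the same seed under another name.
rno-let-7a-5p: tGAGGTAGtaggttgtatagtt
rno-let-7b-5p: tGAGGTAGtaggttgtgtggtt
rno-let-7c-5p: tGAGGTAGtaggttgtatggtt
rno-let-7d-5p: aGAGGTAGtaggttgcatagtt
rno-let-7e-5p: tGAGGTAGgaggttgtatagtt
rno-let-7f-5p: tGAGGTAGtagattgtatagtt
rno-let-7g-5p: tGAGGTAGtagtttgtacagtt
rno-let-7i-5p: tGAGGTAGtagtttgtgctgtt
rno-miR-98-5p: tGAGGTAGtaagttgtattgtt

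All 8 sequences are equal to the RefSeq mature miRNAs of the rat assembly GRCr8. The members are 22 bases long and share 15 of the 22 positions. Positions are counted from 1 at the 5′ end, and the base of let-7a-5p is written first. let-7c-5p differs from let-7a-5p by A19G, let-7e-5p by T9G and let-7f-5p by G12A. let-7b-5p carries A17G and A19G, and so lies 1 base from let-7c-5p. let-7d-5p is the member with another first base, T1A, beside T16C. let-7g-5p carries G12T and T18C, and let-7i-5p adds to these changes A17G and A19T. miR-98-5p differs from let-7a-5p by G11A and A19T. Of the 28 pairs of members, 4 are 1 edit apart, and these link let-7a, let-7b, let-7c, let-7e and let-7f. How the counting treated reads that suit more than 1 member is not given in the sources used here, so the values of these members may share reads. No listed miRNA without the seed lies closer than 8 edits to a member. The seed at bases 2 to 8 was found in 9 of the 243 listed sequences (3.70%), which are the members and miR-98-5p, and in 9 of the 693 RefSeq mature sequences of the rat.

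The genes of the members lie in several clusters. In the GRCr8 gene table, hairpins were joined where their starts lay under 60 kb apart. let-7a-5p, let-7c-5p and let-7f-5p are each made from 2 hairpins, and the other members from 1. Mirlet7a1, a let-7f hairpin and Mirlet7d form a cluster, and Mirlet7c2 lies with Mirlet7b. Mirlet7e lies with Mir99b and Mir125a, Mirlet7c1 with Mir99a and Mir125b2, and Mirlet7a-2 with Mir100 and Mir125b1. The other let-7f hairpin neighbours Mir98, whereas Mirlet7g and Mirlet7i have no such neighbour. A mature sequence made from several hairpins cannot be assigned to one of them, so levels per gene were not derived. The study aligned reads to another assembly, mRatBN7.2, and no coordinates are therefore given.

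Values are RPM, the reads per 1000000 reads of a library total of 20780612 to 22140315 reads. The smallest value of a library was taken as 1 read to derive reads, and the listed miRNAs received 649210 to 814439 of them. Wilson intervals of shares cover counting error only. Since the members have the same length, their RPM can be set side by side, although reads of different sequences need not stand for equal numbers of molecules. The number of Exos and the miRNA held per Exo cannot be told apart in such values.

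rno-let-7f-5p was the most abundant member in every library. Its levels were 3413 and 3464 RPM in the exercise-labelled libraries and 2564 and 2710 RPM in the sedentary-labelled ones. Among all listed miRNAs it ranked 3 and 2 in the former and 4 in both of the latter. rno-let-7i-5p had 2130 and 2366 RPM against 1737 and 2269 RPM. rno-let-7c-5p had 1917 and 1869 RPM against 1770 and 2283 RPM. These latter members changed places between libraries, let-7i-5p being above let-7c-5p in 2 of the 4. Their ratio ranged from 0.981 to 1.27, so their order was not resolved. let-7f-5p lay above let-7i-5p in 4 of 4 libraries, by 1.19 to 1.60 times. Together let-7c, let-7f and let-7i held 85.2% and 84.8% of the family signal in the exercise-labelled libraries and 82.0% and 83.4% in the sedentary-labelled ones.

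A middle tier was formed by let-7a-5p and let-7b-5p. rno-let-7a-5p had 643 and 693 RPM in the exercise-labelled libraries and 585 and 598 RPM in the sedentary-labelled ones. rno-let-7b-5p had 414 and 416 RPM against 541 and 628 RPM. The order of the pair was not the same in every library: let-7a-5p lay above let-7b-5p in 3 of 4, by 1.66 times at most, and just below it in replicate 2 of the sedentary-labelled libraries (ratio 0.952). let-7c-5p lay above let-7a-5p in 4 of 4 libraries, by 2.70 to 3.82 times.

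The scarce members were let-7g-5p, let-7d-5p and let-7e-5p. rno-let-7g-5p had 195 and 218 RPM in the exercise-labelled libraries and 124.9 and 145 RPM in the sedentary-labelled ones. rno-let-7d-5p had 34.9 and 39.0 RPM against 69.6 and 52.0 RPM. rno-let-7e-5p had 8.46 and 8.81 RPM against 8.72 and 24.5 RPM. A single library, replicate 2 of the sedentary-labelled ones, was thus high for let-7e-5p, with 510 reads where the other 3 had 186 to 195. The order from let-7b-5p to let-7g-5p, let-7d-5p and let-7e-5p held in 4 of 4 libraries at each step. Among all listed miRNAs, let-7e-5p ranked between 60 and 85 of 243.

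**Figure D1:**
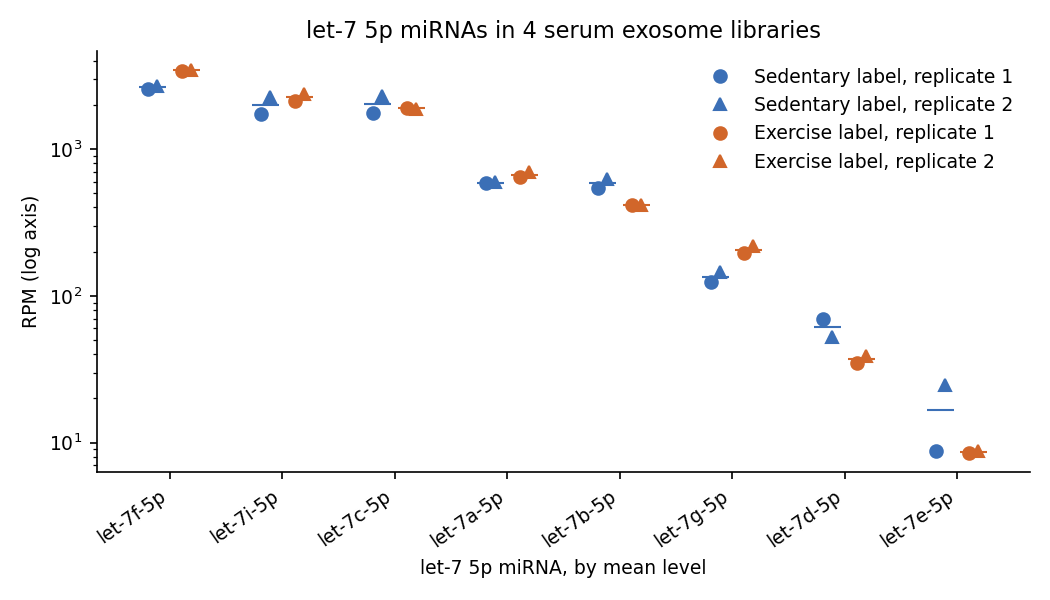
RPM of the 8 let-7 5p miRNAs on a log axis, ordered by mean level, with 1 point per library (circles replicate 1, triangles replicate 2) and a line at each group mean. let-7f-5p is highest in each library (2564 to 3464 RPM), and let-7b-5p and let-7d-5p lie lower, let-7f-5p and let-7g-5p higher, in both exercise-labelled libraries than in either sedentary-labelled one.

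The next comparison asked how much of the listed miRNA signal the family held. It held 27.8% (95% Wilson interval 27.7% to 27.9%) and 30.9% (30.8% to 31.1%) in the exercise-labelled libraries. In the sedentary-labelled libraries it held 21.6% (21.5% to 21.7%) and 22.2% (22.1% to 22.3%). The groups did not overlap, with means of 29.4% ± 2.25 (SD, n = 2) and 21.9% ± 0.444 (SD, n = 2), a difference of 7.45 percentage points. No test was made of this share.

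This share has a numerator and a denominator, and both differed. The family sum was 8756 and 9074 RPM in the exercise-labelled libraries and 7399 and 8710 RPM in the sedentary-labelled ones. The groups did not overlap, but their means of 8915 ± 225 (SD, n = 2) and 8054 ± 926 (SD, n = 2) differed by less than the SD of the sedentary-labelled pair, at a ratio of 1.11. The other listed miRNAs summed to 22782 and 20248 RPM in the exercise-labelled libraries and to 26865 and 30483 RPM in the sedentary-labelled ones. The sum over the other miRNAs was thus lower in both exercise-labelled libraries. Most of the 0.740% to 0.907% of library reads that fell on let-7 came from let-7f, let-7i and let-7c. Without let-7f-5p the ratio of family sums was 0.016 on the log2 scale, against 0.15 with it, and the difference in share was 3.33 points. Leaving out replicate 1 of the sedentary-labelled libraries gave a log2 ratio of 0.034, and leaving out their replicate 2 gave 0.27.

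miR-486, a miRNA of the red cell lineage, was the most abundant miRNA in all 4 libraries. It had 5710 and 4724 RPM in the exercise-labelled libraries and 8754 and 11162 RPM in the sedentary-labelled ones. Without it in the total, the let-7 share was 33.9% and 36.9% against 29.0% and 31.1%, a difference of 5.36 points, and the groups still did not overlap. Of the 6 names of red cell markers, 5 were listed, and the name not listed was miR-486-5p, beside the listed miR-486. The sum of those listed, nearly all of it miR-486, was 5774 and 4806 RPM against 8768 and 11312 RPM. Among the other red cell markers, miR-16-5p went the other way, with 8.42 and 8.67 RPM against 0 and 1.97 RPM, miR-451-5p overlapped between the groups, and miR-144-3p and miR-144-5p were at 0 in 3 libraries each. The sum of 4 liver markers was 933 and 931 RPM against 1535 and 1689 RPM, that of 4 muscle markers 497 and 449 RPM against 371 and 428 RPM, and that of 7 platelet and white cell markers 258 and 263 RPM against 142 and 175 RPM. The table holds miRNAs only, so protein markers of Exos could not be looked at. These sums did not stand for every marker. Without overlap, 1 liver marker was higher with the exercise label (miR-148a-3p) and 1 lower (miR-122-5p), and 1 muscle marker was higher (miR-1-3p) and 1 lower (miR-206-3p). Of the 7 platelet and white cell markers, 3 were higher (miR-150-5p, miR-142-3p and miR-155-5p) and 0 lower. Of all miRNAs tested, 32% and 20.2% separated in these directions. miR-150-5p had 149 and 129 RPM against 41.6 and 56.9 RPM. The others named were near the floor, miR-142-3p with 3.91 and 5.01 RPM against 3.45 and 0 RPM and miR-155-5p with 1.23 and 0.677 RPM against 0 and 0 RPM. The part of these markers in the let-7 share was not tested.

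**Figure D2:**
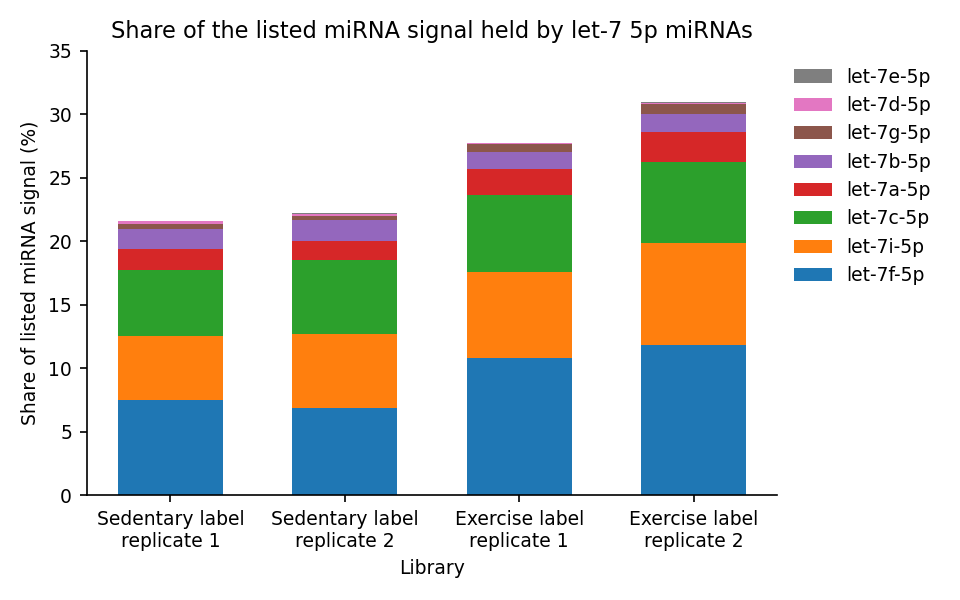
Share of the listed miRNA signal (percent) held by the let-7 5p miRNAs in each library, stacked by member with let-7f-5p at the base. Both bars of the exercise-labelled libraries (27.8% and 30.9%) exceed those of the sedentary-labelled libraries (21.6% and 22.2%).

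Ranked by seed, the let-7 family exchanged the first place with miR-486. When all miRNAs with the same bases 2 to 8 were summed, the let-7 seed, with miR-98-5p included, ranked 1 in both exercise-labelled libraries, with 8788 and 9103 RPM. It ranked 2 in both sedentary-labelled libraries, with 7404 and 8714 RPM, behind the seed of miR-486. miR-10a-5p, whose gene lies in a Hox cluster, formed the third seed by mean level and had 3093 to 4491 RPM.

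No single member passed the thresholds of the study, which were applied here to limma, whereas the study used DESeq2. limma was fitted on log2(RPM + 1) to the 178 miRNAs that had reads in 2 or more libraries, and a call needed a log2 fold change beyond 1 in either direction together with a Benjamini-Hochberg adjusted p under 0.05. On this scale the change of low miRNAs is understated. limma called 0 of the 8 members, against 14 of the 178 miRNAs tested (7.87%). The latter count depended on single libraries: it was 30 without replicate 1 and 39 without replicate 2 carrying the sedentary label, and 0 without replicate 1 and 7 without replicate 2 carrying the exercise label. At an adjusted p under 0.05 with any fold it was again 0 of 8, against 17 of 178 (9.55%). With replicate 2 of the sedentary-labelled libraries left out it was 3 members (let-7d, let-7f and let-7g), where 55 of 168 miRNAs (32.7%) passed. At an unadjusted p under 0.05 it was 4 of 8, against 54 of 178 (30.3%). The fold changes of the members lay between -0.71 and 0.61, so each was within the fold threshold of 1.

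The members did not share a direction. The median of the log2 fold changes (exercise label over sedentary label) was 0.04 for the members, with 4 above 0 and 4 below. Over all 178 miRNAs it was 0.21, with 106 above 0 and 72 below. let-7a-5p, let-7f-5p and let-7g-5p were higher in both exercise-labelled libraries than in either sedentary-labelled one. This is 3 of 8 (37.5%), where 57 of all 178 (32%) separated that way. let-7b-5p and let-7d-5p were lower in both, which is 2 of 8 (25%), where 36 of 178 (20.2%) separated that way. let-7c-5p, let-7e-5p and let-7i-5p overlapped between the groups.

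By the treatment labels, let-7g-5p had the highest fold change of the 8 members and let-7e-5p the lowest, an order that would be turned if the labels were exchanged. Its group means were 207 ± 16.7 RPM (SD, n = 2) with the exercise label and 135 ± 14.5 RPM (SD, n = 2) with the sedentary label. The log2 fold change was 0.61 (SE 0.17, 95% interval 0.19 to 1.03), at an adjusted p of 0.087 in limma with Benjamini-Hochberg adjustment. let-7f-5p, the leading member, had means of 3438 ± 35.9 and 2637 ± 103 RPM (SD, n = 2 each). On the log2 scale its fold change of 0.38 (SE 0.13, 95% interval 0.05 to 0.71) had an adjusted p of 0.13 from limma. SE stands for the standard error of the fit. Neither passed the adjustment, although their intervals, which are not adjusted for the number of miRNAs, lay above 0. For let-7a-5p the difference on the log2 scale was 0.17 (SE 0.13) at an adjusted p of 0.45 in limma, and it was 0.44 when values were scaled to the total of the listed miRNAs and 0.07 with median-of-ratios scaling.

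let-7b-5p lay on the other side. Its means were 415 ± 1.503 RPM (SD, n = 2) with the exercise label and 585 ± 61.7 RPM (SD, n = 2) with the sedentary label. The log2 fold change was -0.49 (SE 0.14, 95% interval -0.84 to -0.13), with an adjusted p of 0.097 from limma, and it was -0.22 when values were scaled to the total of the listed miRNAs. let-7d-5p had means of 37.0 ± 2.85 and 60.8 ± 12.5 RPM (SD, n = 2 each). Its log2 fold change of -0.69 (SE 0.27, 95% interval -1.36 to -0.02) had an adjusted p of 0.16 from limma. The genes of these members lie in different clusters, let-7b beside a let-7c hairpin and let-7d beside hairpins of let-7a and let-7f.

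The other 3 members overlapped between the groups, and their intervals held 0. For let-7c-5p limma gave a log2 fold change of -0.09 (SE 0.17, 95% interval -0.50 to 0.33) and an adjusted p of 0.78, and its sign turned to 0.18 when values were scaled to the total of the listed miRNAs and to 0.10 without replicate 2 of the sedentary-labelled libraries. let-7i-5p had one of 0.18 (SE 0.18, 95% interval -0.26 to 0.61) at an adjusted p of 0.56 in limma, which was -0.02 without replicate 1 of the sedentary-labelled libraries. let-7e-5p had one of -0.71 (SE 0.69, 95% interval -2.42 to 1.00) at an adjusted p of 0.56 in limma. That value rested on the single high library: without it the log2 fold change was -0.01, and without the other sedentary-labelled library it was -1.41. When let-7a, let-7b, let-7c, let-7e and let-7f, which are linked by steps of 1 edit, were summed into 1 feature, that feature had a log2 fold change of 0.14 (SE 0.16).

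**Figure D3:**
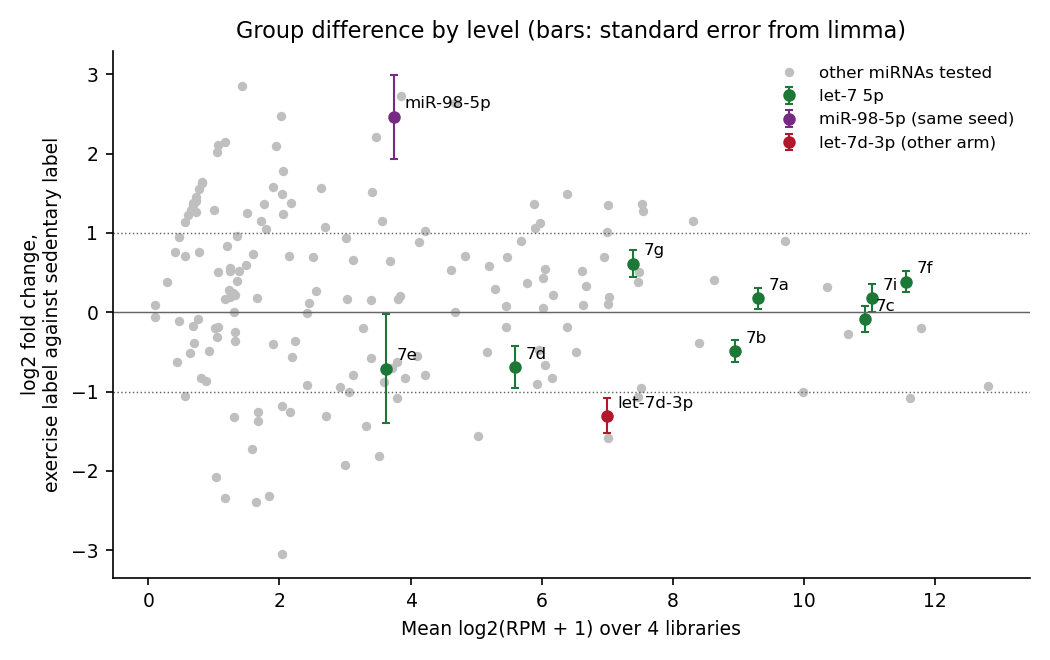
Log2 fold change from limma (exercise label over sedentary label) against the mean log2(RPM + 1) over the 4 libraries for the 178 miRNAs tested, with standard errors for the let-7 5p miRNAs (green), miR-98-5p (purple) and let-7d-3p (red). The 8 members lie between -0.71 and 0.61, inside the dotted lines at -1 and 1, whereas miR-98-5p (2.46) and let-7d-3p (-1.31) lie outside them.

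Ratios between members of a library do not depend on how that library was scaled. let-7f-5p was 8.24 and 8.32 times let-7b-5p in the exercise-labelled libraries and 4.74 and 4.31 times in the sedentary-labelled ones. let-7g-5p was 0.470 and 0.525 times let-7b-5p against 0.231 and 0.231 times. In both cases the groups were apart by more than their spread. An exact two-sided permutation test gave p = 0.33 for each, the smallest p that 2 libraries against 2 can give, and the pairs were chosen after their values had been seen. Accordingly, let-7b-5p made up 4.73% and 4.59% of the family in the exercise-labelled libraries and 7.31% and 7.21% in the sedentary-labelled ones. let-7f-5p made up 39.0% and 38.2% against 34.6% and 31.1%.

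Members were also set against their base composition, a comparison chosen after the values had been seen. let-7b-5p has the most G and C of the family, 10 of 22 bases, and let-7f-5p the fewest, 7 of 22. let-7a-5p and let-7g-5p hold 8, and let-7c-5p, let-7d-5p, let-7e-5p and let-7i-5p hold 9. The members that separated upward are thus those with 7 or 8, and the members with 9 or 10 were separated downward or overlapped. Spearman's rho between the G and C percentage and the log2 fold change was -0.69 over the 8 members, and -0.77 with miR-98-5p added. Over all 178 miRNAs tested it was -0.29, and over the 31 with a mean above 100 RPM it was -0.32. These values are descriptions across miRNAs that share the same 4 libraries, and the part of base composition in the group differences was not tested.

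**Figure D4:**
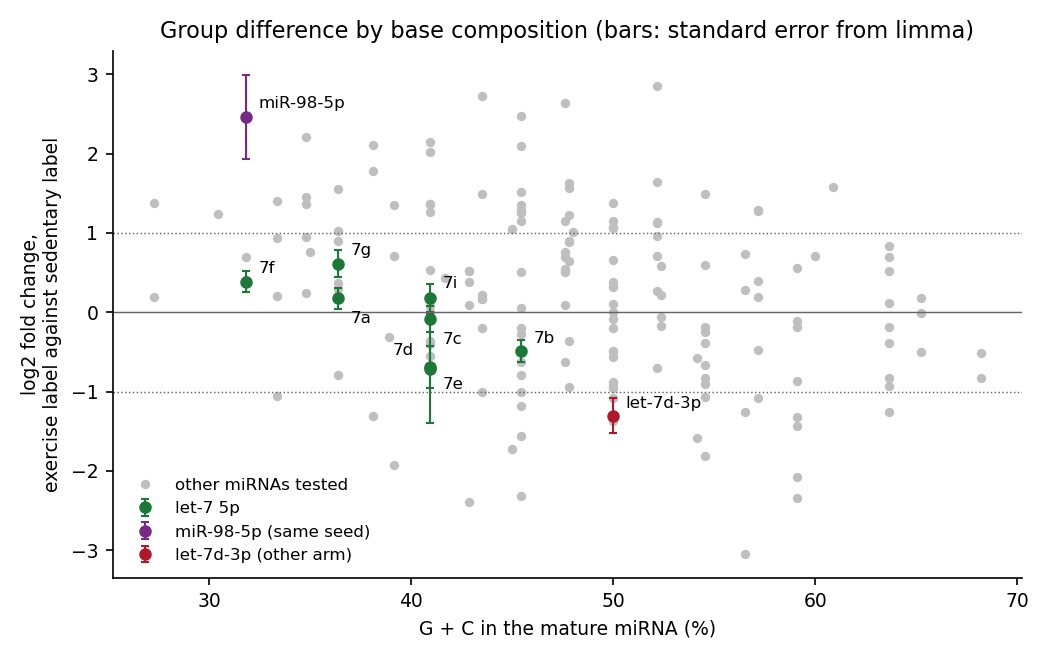
Log2 fold change from limma (exercise label over sedentary label) against the G and C content of the mature sequence (percent) for the 178 miRNAs tested, with standard errors for the named miRNAs. Among the let-7 5p miRNAs (green), let-7f-5p and let-7g-5p with 7 and 8 of 22 G or C bases lie above 0, and let-7b-5p with 10 lies below 0, but let-7i-5p with 9 lies above 0 (0.18), level with let-7a-5p with 8 (0.17).

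miR-98-5p, the scarce relative with the let-7 seed, had a larger fitted fold change than any member. It had 32.9 and 28.5 RPM in the exercise-labelled libraries and 4.59 and 4.86 RPM in the sedentary-labelled ones. The groups were far apart, with means of 30.7 ± 3.11 and 4.72 ± 0.193 RPM (SD, n = 2 each), a ratio of 6.49. limma gave a log2 fold change of 2.46 (SE 0.53, 95% interval 1.15 to 3.77) and a Benjamini-Hochberg adjusted p of 0.043, which is a call. The call was lost, with the same sign, with a pseudocount of 10 (1.46, adjusted p = 0.052 from limma), without the filter on low values (0.053), with a single variance prior (0.11), and without replicate 1 (0.51) or replicate 2 (0.33) of the exercise-labelled libraries. Its hairpin neighbours one of those of let-7f-5p. miR-98-5p reached 0.963% and 0.822% of the level of let-7f-5p with the exercise label and 0.179% in both libraries with the sedentary label. Adding it to the family hardly altered the sum, whose log2 ratio remained 0.15.

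Of the 10 let-7 3p strands in RefSeq, the partner strands cut from the same hairpins, 2 entries were listed. let-7d-3p was the one above 0 in every library, and it was more abundant than let-7d-5p in all 4. The hairpin of let-7d is shown with both strands in capitals, the 5p strand first, as RefSeq gives it for Mirlet7d on GRCr8, over 98 bases.
Mirlet7d hairpin: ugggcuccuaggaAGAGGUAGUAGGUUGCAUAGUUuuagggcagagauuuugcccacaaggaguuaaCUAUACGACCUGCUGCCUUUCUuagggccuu
let-7d-3p had 76.2 and 84.5 RPM in the exercise-labelled libraries and 169 and 237 RPM in the sedentary-labelled ones. It was lower in both exercise-labelled libraries, with means of 80.3 ± 5.89 and 203 ± 48.2 RPM (SD, n = 2 each), and limma called it (-1.31 on the log2 scale, SE 0.22, adjusted p = 0.025 with Benjamini-Hochberg adjustment). The call was lost when low values were not filtered (limma adjusted p = 0.053), with a single variance prior (0.14) and without replicate 1 of the exercise-labelled libraries (0.14), where the log2 values were -1.31, -1.31 and -1.23. For miR-98-5p and let-7d-3p too, the direction rests on the treatment labels.

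Both strands of let-7d thus lay lower with the exercise label, and the question was whether their proportion differed. The ratio of let-7d-5p to let-7d-3p was 0.459 and 0.461 in the exercise-labelled libraries and 0.413 and 0.220 in the sedentary-labelled ones. Replicate 2 of the latter stood apart from the other 3 libraries. On the log2 scale, with a pseudocount of 1, the difference between group means was 0.62 (exact two-sided permutation test, p = 0.33, the smallest possible). With single libraries left out it ranged from 0.17, without replicate 2 of the sedentary-labelled libraries, to 1.07, without their replicate 1, so its size rested on these libraries. The other listed entry, which names the shared 3p strand of a let-7a and a let-7c hairpin, had 40 reads in replicate 2 of the exercise-labelled libraries, was at 0 in the remaining 3 and was not tested.

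**Figure D5:**
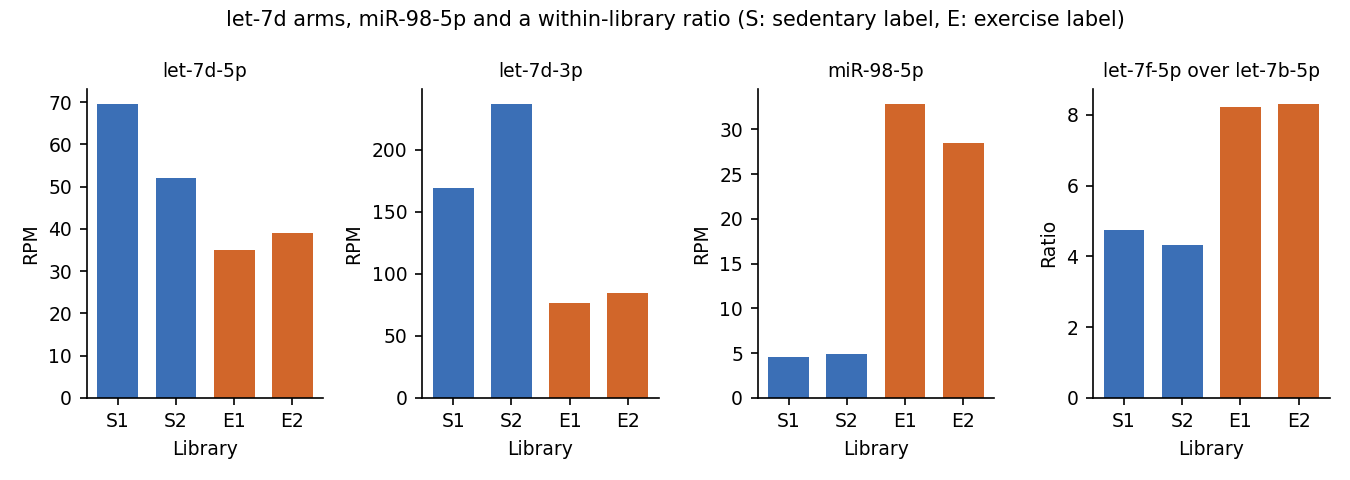
RPM of let-7d-5p, let-7d-3p and miR-98-5p, and the ratio of let-7f-5p to let-7b-5p, in each library, on axes that start at 0. Both let-7d strands are lower, and miR-98-5p and the ratio higher, in E1 and E2 (exercise label) than in S1 and S2 (sedentary label).

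Antisense miRNAs of the let-7 genes were also listed. miR-3596a is the reverse complement of let-7a-5p over its 22 bases, and its sequence is shown because a count without strand could not tell it from let-7a-5p.
rno-miR-3596a: aactatacaacctactacctca
It had 8.51 and 3.61 RPM in the exercise-labelled libraries and 14.2 and 7.70 RPM in the sedentary-labelled ones, where let-7a-5p had 585 RPM or more. The groups overlapped, and limma gave an adjusted p of 0.56. miR-3596c and miR-3596d, the antisense strands of let-7e-5p and let-7f-5p, had at most 3 and 61 reads in a library. Whether strand was used in the counting is not given in the sources used here.

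The clusters that hold let-7 hairpins also hold members of the miR-99, miR-100 and miR-125 families. Of these partners, 9 miRNAs were listed and tested, and limma called 0 of them (against 7.87% of all miRNAs tested), at a lowest adjusted p of 0.10. At an unadjusted p under 0.05 it was 1 (against 30.3% of all), miR-125a-3p, whose reads were 48 and 96 with the sedentary label and 0 and 0 with the exercise label. Fold changes were above 0 for 2 partners and below 0 for 7, with a median of -0.57, against 0.21 over all miRNAs tested. That median was the value of miR-125b-5p (SE 1.22), which had 23 to 293 reads in a library. Low levels were also seen for miR-99b-3p and miR-125b-1-3p, with means of 2.79 and 1.75 RPM. miR-100-5p, the partner of a let-7a hairpin, had 129 and 101 RPM against 106 and 76.9 RPM. miR-99a-5p, the partner of a let-7c hairpin, had 85.7 and 67.6 RPM against 90.4 and 129 RPM. miR-99b-5p, the partner of let-7e, had 90.0 and 65.8 RPM against 89.8 and 85.8 RPM. let-7e-5p lay below miR-99b-5p in each of the 4 libraries, whereas let-7a-5p and let-7c-5p lay above miR-100-5p and miR-99a-5p.

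The miRNAs whose profile over the 4 libraries was most like the family sum were sought among the 74 other miRNAs with a mean of at least 10 RPM. Likeness was the root mean square distance of log2(RPM + 1) values, each profile being centred on its own mean. miR-126a-3p, which is abundant in endothelium and platelets, was nearest at 0.076, with 67.5 and 62.6 RPM in the exercise-labelled libraries and 57.6 and 68.4 RPM in the sedentary-labelled ones. miR-21-5p followed at 0.12, with 39.0 and 45.3 RPM against 29.2 and 40.3 RPM, and miR-25-3p at 0.14, with 1584 and 1346 RPM against 1047 and 1303 RPM. The highest library of the family sum was 1.23 times the lowest, compared with 1.19 times for miR-126a-3p, 1.55 times for miR-21-5p and 1.51 times for miR-25-3p, so the likeness rests on small differences over 4 libraries.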

How the data were processed

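The data were 4 small RNA libraries of serum Exos, 2 per treatment label. According to the methods and labels, the authors trimmed reads with cutadapt, aligned them to mRatBN7.2 with an aligner of the Bowtie family and counted them on miRBase miRNAs. The values they deposited are named TPM, but they are RPM: they are not scaled for length, and their base is a library total that exceeds the reads on listed miRNAs. What this total counts is not given in the sources used here. All values above 0 were whole multiples of the smallest value of their library, within 3.78e-10 of a whole number, and derived reads were used for depth and intervals only. The table held no further column of sample values and no column of comparisons.

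limma 3.58.1 in R 4.3.3 was fitted to log2(RPM + 1) of the 178 miRNAs above 0 in at least 2 libraries, with a variance prior that follows the mean and Benjamini-Hochberg adjustment over all of them. Tables and exact permutation tests used Python 3.11.15 and scipy 1.17.1. Libraries of a group differed beyond sampling noise (chi-square per degree of freedom 46.4 and 158), so each counted as 1 sample. The members, relatives and marker lists were chosen with earlier results of these data known. Named besides the members were same-seed miRNAs, 3p strands, cluster partners, leading seeds and the 3 most similar profiles. The antisense miRNAs, the ratios between members and the G and C content were added after values had been seen. Alternatives changed the pseudocount, filter, scaling, variance prior, block, thresholds, libraries and member definition.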

Additional observations from a re-analysis of the deposited data

How the results depend on the processing

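The count of members called by limma was 0 under every alternative run. It was 0 of 8, except where let-7a, let-7b, let-7c, let-7e and let-7f were summed into 1 feature. That run held 4 features in place of the 8 members. Over all miRNAs, 14 were called; it was 3 without the filter on low values, 0 with a single variance prior and 0 to 39 with a library left out, so in fits with few or no calls the members' 0 carries little. The count of members at an adjusted p under 0.05 with any fold, chosen after seeing the data, was 0, beside 17 of 178 miRNAs. It was 2 (let-7b, let-7g) with a mean of at least 10 RPM, beside 26 of 82, 1 (let-7b) with median-of-ratios scaling, beside 18 of 178, and 2 (let-7f, let-7g) with scaling to the listed total, beside 27 of 178. With a library left out it ranged from 0 to 3: 1 (let-7b) without replicate 1 labelled Sedentary, beside 39 of 168, and 3 without replicate 2, beside 55 of 168. A lone library was assumed to vary like the other group.

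The deviations of same-numbered libraries had a correlation of -0.15. With 2 libraries per treatment label, this cannot settle whether replicate numbers pair the libraries. With the replicate block, 0 members passed at any fold, beside 24 of 178 miRNAs. A block that crosses the replicate numbers, added with the data seen, gave 3, beside 27 of 178. Both called 18 miRNAs and 0 members.

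Of 107 alternative values for single members, 104 kept their sign, and in all 107 the member was not called at both thresholds together, although single thresholds were crossed, as above and by let-7e-5p (-1.41 without replicate 1 labelled Sedentary). let-7c-5p turned to 0.18 with scaling to the listed total and ranged from -0.27 to 0.10 with a library left out. let-7i-5p ranged from -0.015 to 0.37 with a library left out and was 0.45 with scaling to the listed total, which also moved let-7a-5p from 0.17 to 0.44, let-7b-5p from -0.49 to -0.22, let-7d-5p from -0.69 to -0.43, let-7e-5p from -0.71 to -0.46, let-7f-5p from 0.38 to 0.65 and let-7g-5p from 0.61 to 0.88. Median-of-ratios scaling moved values the other way, let-7a-5p to 0.072, let-7c-5p to -0.19 and let-7i-5p to 0.075. The family sum (log2 ratio 0.15) was 0.016 without let-7f-5p, 0.42 with scaling to the listed total, 0.051 with median-of-ratios scaling, and 0.034 to 0.27 with a library left out, the lowest without replicate 1 and the highest without replicate 2 of the libraries labelled Sedentary. The share difference (7.45 points) was 3.33 without let-7f-5p, 5.36 without miR-486, and 5.85 to 9.04 with a library left out. The median over all miRNAs, 0.21, was 0.40 with a pseudocount of 0.1, 0.081 with 10, and 0.44 with scaling to the listed total. The cause of these shifts was not tested.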
